A study of Mus musculus domesticus with 18 samples.

Results

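The enzymes that build haem and the reductases that finish its breakdown were followed in livers of wild house mice from 2 altitudes. The genes were Alas1, Alad, Uros, Urod, Cpox, Ppox and Fech for synthesis and Blvra and Blvrb for breakdown. They were chosen by name, and every probe set annotated to only 1 of these 9 symbols was used, which gave 20 of the 45101 probe sets on the array. Alas1, Alad, Uros and Urod had 2 probe sets each, Cpox and Ppox 3, Fech 4, and Blvra and Blvrb 1.

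Total RNA was taken from 18 livers, 1 array per mouse. High altitude mice, 9 wild males, were trapped in La Paz, Bolivia, at 3600 m, and low altitude mice, also 9 wild males, in Lima, Peru, at 100 m. Mice of each altitude came from 3 places, A, B and C, with 3 mice per place, so location A at one altitude has no tie to location A at the other. All were house mice, Mus musculus domesticus, and received no treatment named in the labels. The labels give no ages, and they name C57BL/6J as the strain although the mice were trapped in the wild. Altitude coincided with city and mouse population, so these cannot be told apart. Levels are RMA values on the log2 scale, where 1 unit is a 2-fold step, and can be compared between mice within a probe set but not between probe sets.

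Haem is made in steps that begin and end in the mitochondrion, with the middle steps in the cytosol. Alas1 joins glycine and succinyl-CoA in the first and rate-limiting step outside red cell precursors, and haem itself lowers Alas1. The liver is, after the bone marrow, the main site of synthesis, and much of its haem goes into cytochrome P450 enzymes. In breakdown, haem oxygenases open the ring to biliverdin, and biliverdin reductases turn biliverdin into bilirubin, which hepatocytes conjugate and excrete into bile.

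Array medians lay between 5.24 and 5.36, and arrays correlated with each other at 0.976 to 0.994. The hepatocyte genes Alb and Apoa1 stood between 14.46 and 14.92 in every liver. The mean level of 8 measured hepatocyte markers ran from 13.37 to 13.71 at high altitude and from 13.30 to 13.82 at low altitude. None of these 8 passed the altitude test described below; Apob, the apolipoprotein gene with the smallest p, differed by -0.25 ± 0.08 (log2, SE, adjusted p = 0.24). The mean level of 9 measured red cell lineage markers ran from 4.99 to 5.49 at high and from 5.04 to 5.39 at low altitude, and 4 of the 9 lay above the median probe set. Of 12 Kupffer cell and macrophage markers 11 had positive high minus low differences, with a median of 0.30 and 0 past the test. Of all probe sets 50.2% had negative differences. At an unadjusted limma p under 0.05 there were 4 of 12, Csf1r, Lyz2, C1qa and C1qb, against 10.1% of all. The mean level of the 12 ran from 8.62 to 10.07 at high and from 8.56 to 9.71 at low altitude. The part of these cells in the results below was not tested, and in whole liver fewer cells of a type and less RNA per cell cannot be told apart.

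The first comparison asked whether haem enzyme transcripts differed between the altitudes. No haem enzyme probe set passed the test: limma, with the place of trapping as random block, called 0 of 20 at an adjusted p under 0.05, against 0.298% of all 45037 probe sets tested (134, of them 77 higher and 57 lower at high altitude). At an unadjusted p under 0.05 there were 3 of 20, probe sets of Cpox, Fech and Blvra, against 10.1% of all; the exact two-sided permutation test over mice gave an unadjusted p under 0.05 for the same 3. All 3 had negative differences, and 4.95% of all probe sets had both a negative difference and such a p. In all, 16 of 20 differences were negative, against 50.2% of all probe sets. The median difference was -0.07 over the haem enzyme probe sets and -0.000431 over all probe sets. Among the 15 haem enzyme probe sets brighter than the median probe set, 13 differences were negative, against 52.7% of bright probe sets. The other 5 were dim probe sets of Uros, Cpox, Ppox and Fech. These counts are not of independent values, since 7 of the 9 genes had several probe sets. They also include Blvrb, whose difference was -0.000106. The 3 high location means lay wholly on one side of the 3 low location means for 3 of 20 probe sets, against 13.6% of all. In these 3 they were the lower ones, against 7.07% of all, and for none of the 20 did all 9 mice of one altitude lie apart from the 9 of the other, against 0.0822% of all. Standard errors of the 20 differences ran from 0.06 to 0.28, so the number of arrays limits how small a difference could be called.

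**Figure D1:**
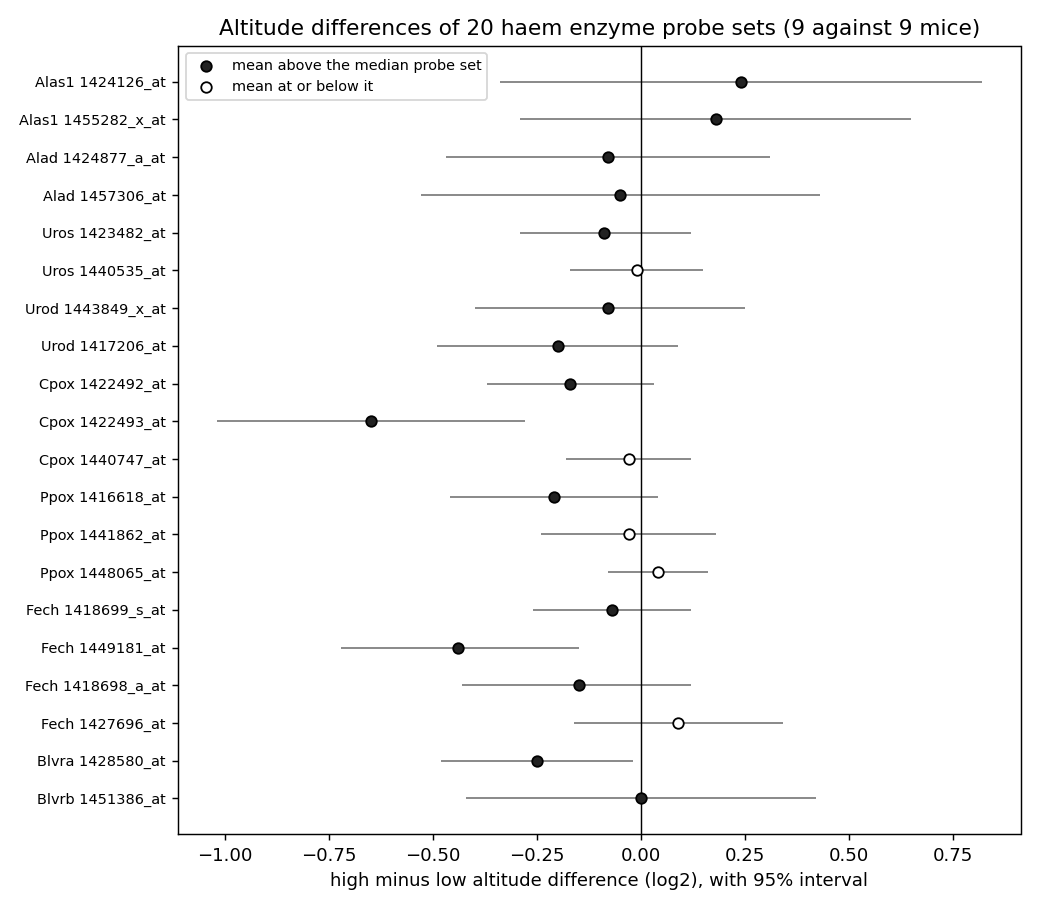
High minus low altitude differences on the log2 scale for the 20 haem enzyme probe sets, in pathway order from the top, with limma's 95% intervals as bars (9 against 9 mice). Filled points are probe sets brighter than the median probe set. Cpox 1422493_at at -0.65 and Fech 1449181_at at -0.44 lay farthest from 0, and neither passed the adjusted test.

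Alas1 encodes the rate-limiting first enzyme and varied more between mice than the other members. Its brighter probe set, 1424126_at, stood at 10.63, 9.89 and 10.35 in the 3 mice of high location A, at 11.86, 9.73 and 10.74 in high B, and at 9.86, 10.39 and 10.50 in high C. In the low altitude mice it stood at 10.16, 9.97 and 9.96 in location A, at 10.61, 8.58 and 10.72 in B, and at 10.57, 10.58 and 10.64 in C. The groups overlapped almost entirely: mouse B1 was the highest of the high altitude mice and mouse B2 the lowest of the low altitude mice, each far from the rest of its group. The mean was 10.44 ± 0.64 at high altitude and 10.20 ± 0.67 at low altitude (SD, 9 mice each). The log2 difference was 0.24 ± 0.28 (SE, 95% interval -0.34 to 0.82, limma adjusted p = 0.852). Without high B1 it was 0.06, and without low B2 it was 0.04. It was also smaller with a measure of RNA integrity as a covariate (0.07, the Actb gap described with Blvrb), with arrays weighted by quality (0.08) and without location high B (0.07), and larger without low C (0.44). The lowest and highest mouse were 9.69-fold apart, a range larger than that of 99% of all probe sets.

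The other Alas1 probe set, 1455282_x_at, followed the same mice. It ran from 7.72 to 9.19 with a median of 8.35 at high altitude, and from 6.58 to 8.56 with a median of 8.31 at low altitude. Its log2 difference was 0.18 ± 0.22 (SE, adjusted p = 0.865), and -0.01 without low B2, 0.08 with the integrity covariate, 0.06 with weights, 0.02 without location low B and 0.35 without low C. Across the 18 mice the Alas1 probe sets correlated with a Pearson r of 0.96 and a Spearman rho of 0.88 (permutation p = 1e-05 for each, the smallest 100000 resamples can give; adjusted p = 0.00016 over 16 pairs of probe sets of 1 gene). Without high B1 and low B2, the mice farthest from the median, r was 0.91, and it was 0.96 within high and 0.98 within low altitude. The spread of Alas1 between mice was thus seen by both of its probe sets, though the ending x_at marks probes that may also match other transcripts.

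Of the 9 measured red cell lineage markers, 2 were highest in mouse high B1, and the other 7 were highest in other mice. Alas2, the red cell form of the first enzyme, stood at 10.49 in this mouse, against 7.46 to 10.10 in the other 8 high altitude mice and 8.10 to 9.59 in the low altitude mice. Slc4a1, the red cell anion exchanger, stood at 6.90 in high B1, against 4.93 to 6.11 in the other high altitude mice and 4.75 to 6.34 in the low altitude mice. Hamp, the iron hormone hepcidin, was lowest in high B1 at 5.22, with the other 17 mice between 10.88 and 13.77. Of the 4 red cell markers above the median probe set, Alas2 and Slc4a1 were highest in high B1. Klf1, a red cell transcription factor, was highest in low C1 and the marker Ermap in high A2. The other markers were dim. Among them the haemoglobin gene Hba-a1 ran from 3.49 to 3.95 and Hba-a2 from 4.42 to 4.90, below the median probe set at 5.31. Which mouse is highest or lowest in such dim probe sets says little. High B1 was also the highest mouse for genes outside the red cell markers, among them Abcb6, Hp, Lrp1, Bach1, Crebbp, Glrx5 and, of the haem enzymes, Fech 1418699_s_at. Most of the genes looked at were highest in other mice. The part of red cell markers in the Alas1 value of high B1 was not tested.

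Alad, which joins molecules of aminolaevulinate into porphobilinogen, was the member whose variation lay most between trapping locations. Probe set 1424877_a_at stood at 10.18, 9.42 and 9.98 in the mice of high A, at 10.28, 10.20 and 9.75 in high B, and at 10.54, 10.67 and 10.85 in high C. At low altitude it stood at 9.99, 9.97 and 10.07 in A, at 10.70, 10.70 and 11.04 in B, and at 9.85, 10.09 and 10.21 in C. All 3 mice of high C lay above the other 6 high altitude mice, and all 3 of low B above the other 6 low altitude mice. From highest to lowest the location means were 10.81 in low B, 10.69 in high C, 10.08 in high B, 10.05 in low C, 10.01 in low A and 9.86 in high A. The mice of neighbouring locations in this order overlapped except between high C and high B, where the lowest high C mouse was at 10.54 and the highest high B mouse at 10.28.

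The second Alad probe set, 1457306_at, gave location means of 6.84, 7.37 and 7.94 in high A, B and C and of 6.97, 7.86 and 7.48 in low A, B and C. High C and low B were again the highest location of their altitude, and location A the lowest at both. Here the 1 gap between neighbours in the order lay between high B, with its lowest mouse at 7.17, and low A, with its highest at 7.06. The Alad probe sets correlated with r = 0.71 and rho = 0.64 over the 18 mice (permutation p = 0.00069 and 0.0045, adjusted p = 0.00552 and 0.024 over 16 pairs), with r = 0.60 without high A2 and low B3, the mice farthest from the median, and 0.71 within each altitude.

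The second comparison asked whether mice of different trapping locations at 1 altitude differed. For Alad 1424877_a_at the means of the high locations spanned 1.78-fold and those of the low locations 1.74-fold. The moderated F test of limma had an adjusted p of 0.144 over the high locations and 0.241 over the low locations, so neither passed, with unadjusted values of 0.0011 and 0.000681. For 1457306_at the adjusted p were 0.227 and 0.641. With arrays weighted by quality the adjusted p of 1424877_a_at over the high locations was 0.0489, past the threshold. The 6 locations held 78.1% of the variance of 1424877_a_at between mice, a share larger than that of 99.3% of all probe sets, and 64.9% of that of 1457306_at. Bright probe sets had a median share of 32.9%. Both altitudes had high and low locations, and the altitude difference was -0.08 ± 0.19 for 1424877_a_at and -0.05 ± 0.23 for 1457306_at (SE, adjusted p = 0.938 and 0.97). The fit treats mice of 1 location as nearly independent, so these SE are probably too small for probe sets that vary by location. With 1 mean per location limma's adjusted p was 0.967 and 0.981. The direction of both differences rested on single locations: without high A they were 0.09 and 0.22, and without low B 0.18 and 0.16.

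**Figure D2:**
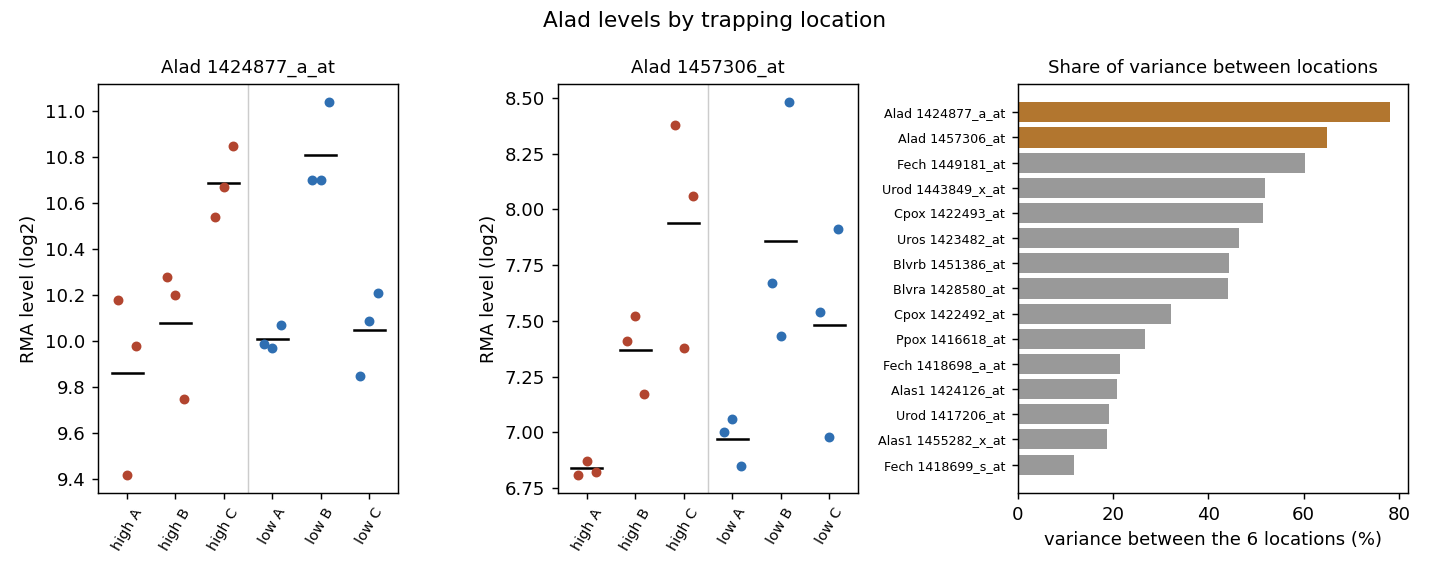
Left and centre, RMA level on the log2 scale of the Alad probe sets in each mouse (points) with the mean of each trapping location (line), high altitude locations in red and low altitude locations in blue. Right, share of the variance between 18 mice that lies between the 6 locations, for the 15 haem enzyme probe sets brighter than the median probe set, with Alad in brown at 78.1% and 64.9%.

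Over all haem enzyme probe sets, 0 of 20 were called between the high locations, against 0.167% of all probe sets, and 0 of 20 between the low locations, against 0.0622%. At an unadjusted p under 0.05 limma's F test gave 4 of 20 between the high locations (8.39% of all) and 3 of 20 between the low locations (6.25% of all). Both lists held the Alad probe sets and Urod 1443849_x_at, and Blvrb was in that of the high locations. An unadjusted p under 0.05 at both altitudes was thus seen for 3 of 20 probe sets, against 1.19% of all.

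Uros closes the ring as uroporphyrinogen III. Its brighter probe set, 1423482_at, stood between 9.28 and 9.87 with a median of 9.41 at high altitude, and between 9.40 and 9.95 with a median of 9.45 at low altitude. Mice A1 and A3 of low altitude, at 9.95 and 9.94, and C1 of high altitude, at 9.87, stood above the other 15, which lay at 9.57 or below. The log2 difference was -0.09 ± 0.10 (SE, adjusted p = 0.849). The dim probe set 1440535_at differed by -0.01 ± 0.08.

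Urod removes carboxyl groups from uroporphyrinogen in the cytosol, and its probe sets did not vary together. The brighter one, 1443849_x_at, ran from 9.97 to 10.80 with a median of 10.50 at high altitude and from 9.76 to 11.10 with a median of 10.49 at low altitude, a log2 difference of -0.08 ± 0.15 (SE, adjusted p = 0.931). The other, 1417206_at, ran from 8.53 to 9.26 with a median of 8.81 at high altitude and from 8.57 to 9.49 with a median of 9.09 at low altitude, a log2 difference of -0.20 ± 0.14 (SE, adjusted p = 0.691). Over the 18 mice their r was 0.27 and rho 0.26 (permutation p = 0.28 and 0.297, adjusted p = 0.407 and 0.433 over 16 pairs). The ending x_at marks a probe set whose probes may also match other transcripts, so which of them follows Urod alone is uncertain.

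Cpox and Ppox carry out the oxidations that turn coproporphyrinogen into protoporphyrin. The Cpox probe sets 1422492_at and 1422493_at were both lower on average at high altitude, by very different amounts. Cpox 1422493_at stood at 9.65, 9.09 and 8.94 in the mice of high A, at 10.12, 9.72 and 9.40 in high B and at 8.85, 9.72 and 9.77 in high C. In the low altitude mice it stood at 10.08, 10.10 and 10.47 in A, at 10.03, 9.45 and 10.78 in B and at 10.17, 10.32 and 9.73 in C. Most high altitude mice lay below most low altitude mice, but the groups overlapped through high B1 and through low B2 and C3. Each of the 9 high altitude mice was below the mean of the low altitude mice. The mean was 9.47 ± 0.43 at high altitude and 10.13 ± 0.39 at low altitude (SD, 9 mice each), a log2 difference of -0.65 ± 0.18 (SE, 95% interval -1.02 to -0.28) or a fold of 0.636. The unadjusted p was 0.00143 and the adjusted p 0.13, and the exact two-sided permutation over mice gave p = 0.00378. This probe set passed after 2 changes of setting. Its adjusted p was 0.0435 when arrays were centred on probe sets above the 75th percentile of level and 0.0447 when arrays were weighted by quality. The calls over all probe sets also rose in these settings, from 134 to 369 and 251. Other settings gave adjusted p = 0.315 with 1 mean per location and 0.306 with mouse number as a replicate block. Without whole locations it was 0.325 (high A), 0.0636 (high B), 0.296 (low A) and 0.275 (low C), among others.

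Cpox 1422492_at ran from 10.17 to 10.66 with a median of 10.50 at high altitude, and from 10.18 to 10.89 with a median of 10.65 at low altitude. Its log2 difference was -0.17 ± 0.10 (SE, 95% interval -0.37 to 0.03, adjusted p = 0.578). The intervals of these Cpox probe sets overlapped, from -0.37 to -0.28. Across mice these correlated with r = 0.61 and rho = 0.61 (permutation p = 0.00697 and 0.00777, adjusted p = 0.0186 and 0.0242 over 16 pairs), and with r = 0.60 without high B3 and low B2. Within altitudes they did so at low altitude (r = 0.86) and hardly at high altitude (r = 0.02). The third, 1440747_at, was dim and differed by -0.03 ± 0.07.

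Ppox 1416618_at ran from 5.82 to 6.66 with a median of 6.22 at high altitude, and from 6.12 to 6.82 with a median of 6.52 at low altitude. In 7 of 9 high altitude mice it was below the mean of the low altitude mice. The log2 difference was -0.21 ± 0.12 (SE, 95% interval -0.46 to 0.04, adjusted p = 0.595). The other Ppox probe sets were dim, with differences of -0.03 and 0.04.

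Fech, which inserts iron into protoporphyrin in the last step, gave different values by probe set. Fech 1449181_at stood at 9.71, 9.97 and 10.54 in high A, at 10.08, 10.41 and 10.32 in high B and at 10.64, 10.62 and 10.66 in high C. In the low altitude mice it stood at 10.42, 10.87 and 11.03 in A, at 10.46, 10.89 and 10.58 in B and at 10.59, 10.79 and 11.26 in C. Each of the 9 high altitude mice was below the mean of the low altitude mice, 10.77, while the 3 high C mice lay within the low altitude range and above every mouse of high B. The log2 difference was -0.44 ± 0.14 (SE, 95% interval -0.72 to -0.15, unadjusted p = 0.00452, adjusted p = 0.209, exact permutation p = 0.00728).

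Fech 1418699_s_at, the brightest of this gene, ran from 10.55 to 11.26 with a median of 10.93 at high altitude, and from 10.68 to 11.21 with a median of 10.92 at low altitude. Its log2 difference was -0.07 ± 0.09 (SE, 95% interval -0.26 to 0.12, adjusted p = 0.873). Fech 1418698_a_at differed by -0.15 ± 0.13 (SE, adjusted p = 0.771), and the dim 1427696_at by 0.09 ± 0.12. The smaller difference of the brightest probe set lay outside the interval of 1449181_at, and the difference between the probe sets was not tested.

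**Figure D3:**
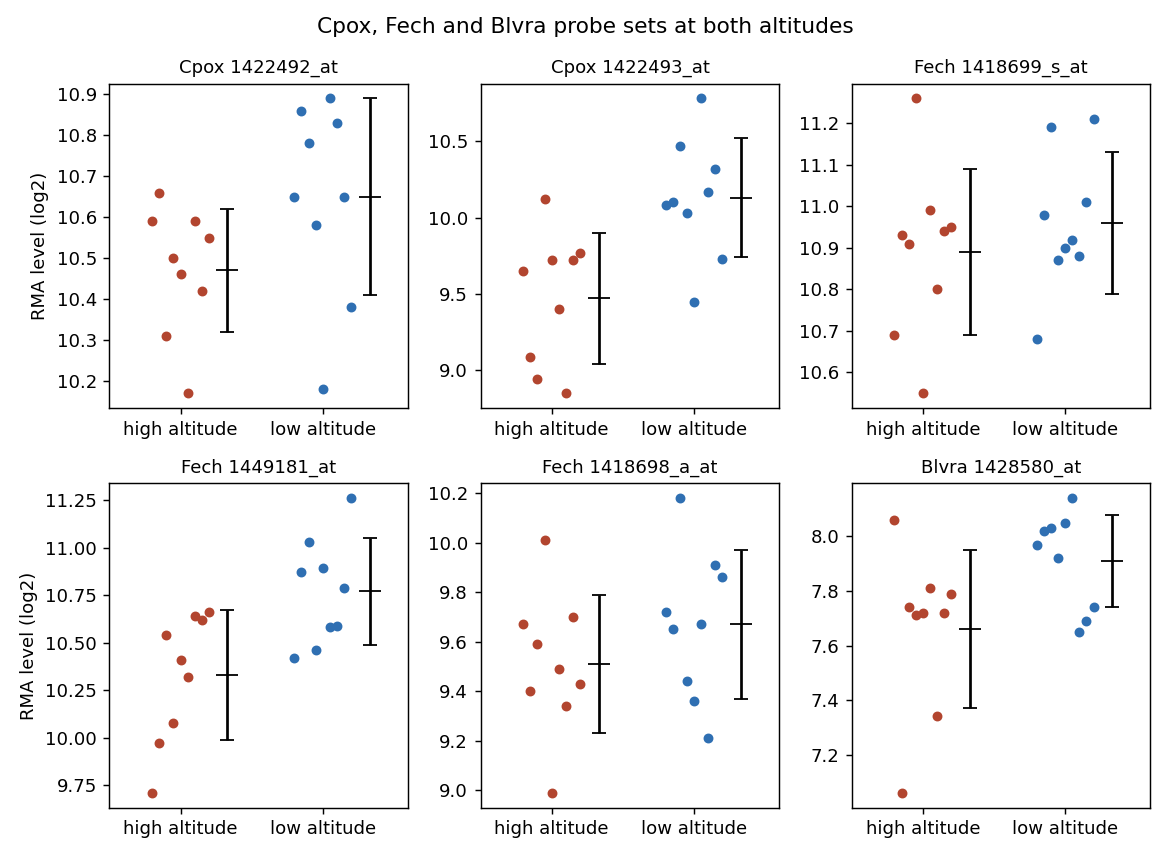
RMA levels on the log2 scale in 9 high and 9 low altitude mice for Cpox, Fech and Blvra probe sets, with the mean and SD of each altitude as bars beside the points. Cpox 1422493_at and Fech 1449181_at were lower on average at high altitude, by 0.65 and 0.44 on the log2 scale, with overlapping mice.

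Blvra encodes the main biliverdin reductase of adult tissues. It stood at 8.06, 7.06 and 7.74 in high A, at 7.71, 7.72 and 7.81 in high B and at 7.34, 7.72 and 7.79 in high C, against 7.97, 8.02 and 8.03 in low A, 7.92, 8.05 and 8.14 in low B and 7.65, 7.69 and 7.74 in low C. The mice of low A and low B lay above all high altitude mice but A1, while those of low C lay among them. The mean was 7.66 ± 0.29 at high altitude and 7.91 ± 0.17 at low altitude (SD, 9 mice each). The log2 difference was -0.25 ± 0.11 (SE, 95% interval -0.48 to -0.02, unadjusted p = 0.0346, adjusted p = 0.442), with an exact permutation p of 0.0325. In the order of location means, low B at 8.04 and low A at 8.0 were followed by high B at 7.75, low C at 7.69 and high A and high C at 7.62 each, and only low A and high B did not overlap.

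Blvrb reduces biliverdin IX-beta, the fetal isomer, and flavins. It averaged 9.98 at both altitudes, with an SD of 0.44 at high and 0.49 at low altitude (n = 9 each), and the 95% interval of the log2 difference ran from -0.42 to 0.42. Its levels did differ between mice. It stood at 9.42, 9.35 and 9.61 in high B, below every mouse of high A (10.39, 10.30 and 10.27) and high C (9.88, 10.56 and 10.04). At low altitude B1 at 9.55, B3 at 9.47 and C1 at 9.17 were as low as the high B mice, while low A stood at 10.03, 10.20 and 10.44, low B2 at 10.42, and low C2 and C3 at 10.57 and 9.99. The high locations spanned 1.82-fold and the low locations 1.33-fold, and the F test did not pass (adjusted p = 0.466 and 0.948). Blvrb moved with a sign of RNA integrity, the gap between 3 prime and 5 prime control probe sets for Actb (r = -0.60, permutation p = 0.00573, 20 probe sets looked at); the 3 prime level exceeded the 5 prime level by 1.4 ± 0.32 in high altitude mice, against 1.21 ± 0.17 in low altitude mice (SD, 9 mice each, exact permutation p = 0.149). With it as a covariate the log2 difference of Blvrb was 0.22.

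**Figure D4:**
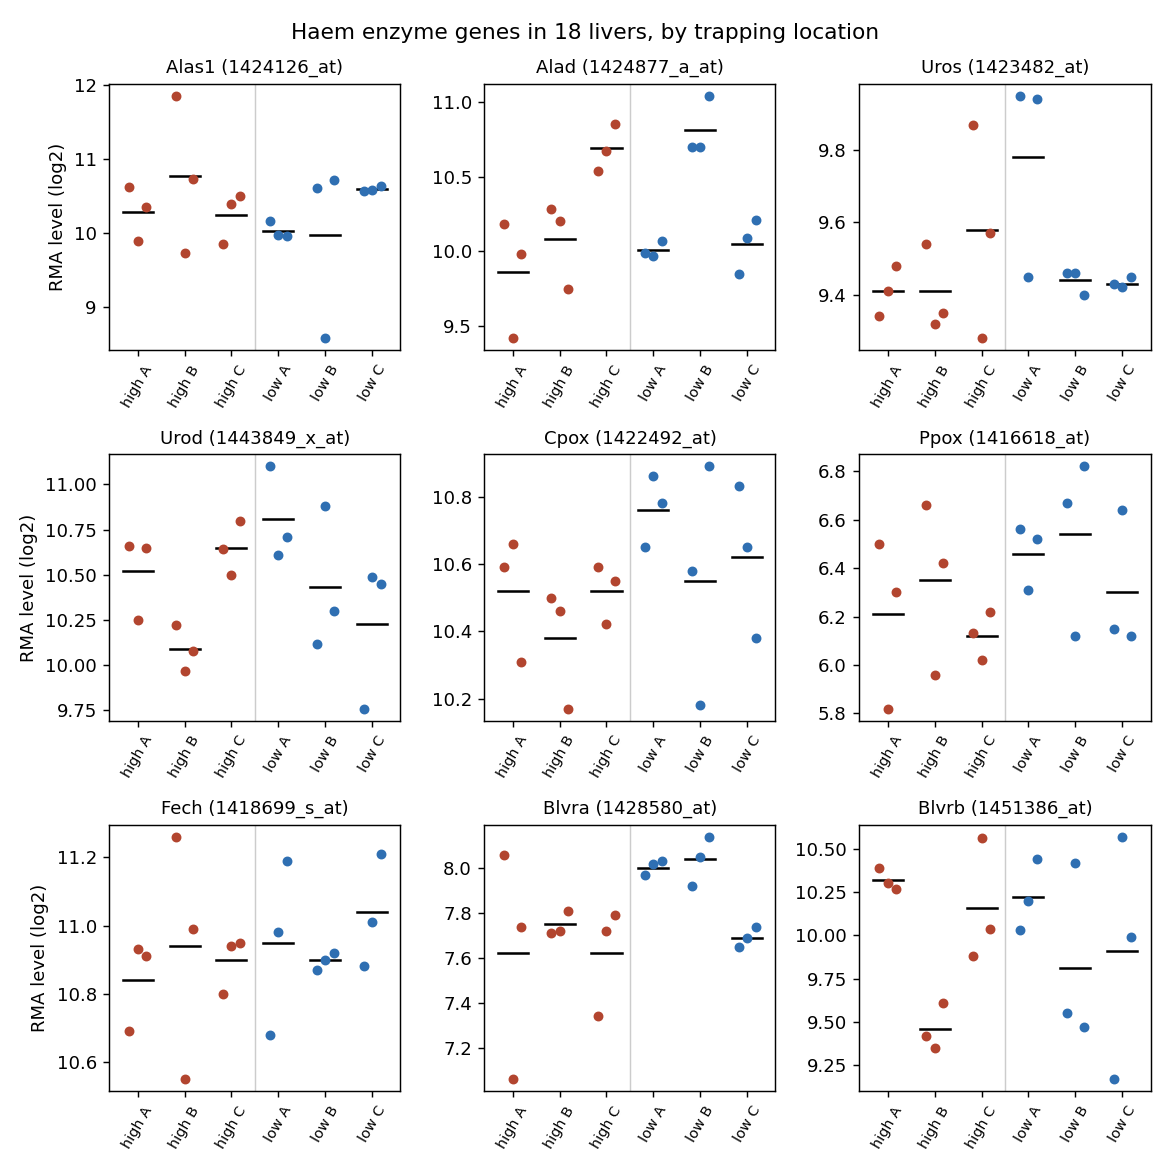
RMA levels on the log2 scale of the brightest probe set of each haem enzyme gene in every mouse (points), by trapping location, with location means (lines); high altitude in red, low altitude in blue. Each panel has its own scale. Alas1 is spread widely within high B and low B and less within the other locations. Alad separates high C and low B from the rest of their altitude, and Blvrb is low in all 3 mice of high B.

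None of the 3 other measured enzymes of the pathway passed the altitude test. Alas2 had a median of 8.41 at high and 8.91 at low altitude and differed by -0.18 ± 0.34 on the log2 scale (SE, adjusted p = 0.921). The haem oxygenase gene Hmox1, the stress-inducible form, ran from 6.94 to 8.82 at high and from 6.95 to 8.29 at low altitude, a log2 difference of 0.04 ± 0.23 (SE, adjusted p = 0.978). Its highest mouse was again high B1, and its lowest were high C3 at 6.94 and low C3 at 6.95. The constitutive form, Hmox2, differed by 0.01 ± 0.11 (SE, adjusted p = 0.986).

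The haem enzyme genes showed little shared variation between mice. With the brightest probe set of each gene, 21 of 36 pairs had a positive Pearson r, with a median of 0.07, and 1 pair passed after adjustment over the 36. This was Urod with Blvrb, with r = 0.70 (permutation p = 0.00136, adjusted p = 0.049) and a Spearman rho of 0.64 (permutation p = 0.00526, adjusted p = 0.161). Its r was 0.65 within high and 0.75 within low altitude. Without low A1 and low C1 r was 0.71 but the adjusted p 0.0882. With Urod 1417206_at in place of 1443849_x_at r was 0.27, and after removing the slope on the Actb integrity difference it was 0.57, so the relation rested on 1 Urod probe set. That probe set, like Blvrb, was lower where the integrity difference was larger (r = -0.51, permutation p = 0.0316). Alas1 had r = 0.51 and rho = 0.60 with Ppox (permutation p = 0.0237 and 0.00894, adjusted p = 0.213 and 0.161), with r = 0.86 within high and 0.45 within low altitude and 0.51 without high B1 and low B2. With Alad, which takes up the product of Alas1, r was -0.02 and rho 0.09 (permutation p = 0.932 and 0.717, adjusted p = 0.973 and 0.936); it was 0.10 within high and -0.11 within low altitude, and 0.29 without high B1 and low B2.

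**Figure D5:**
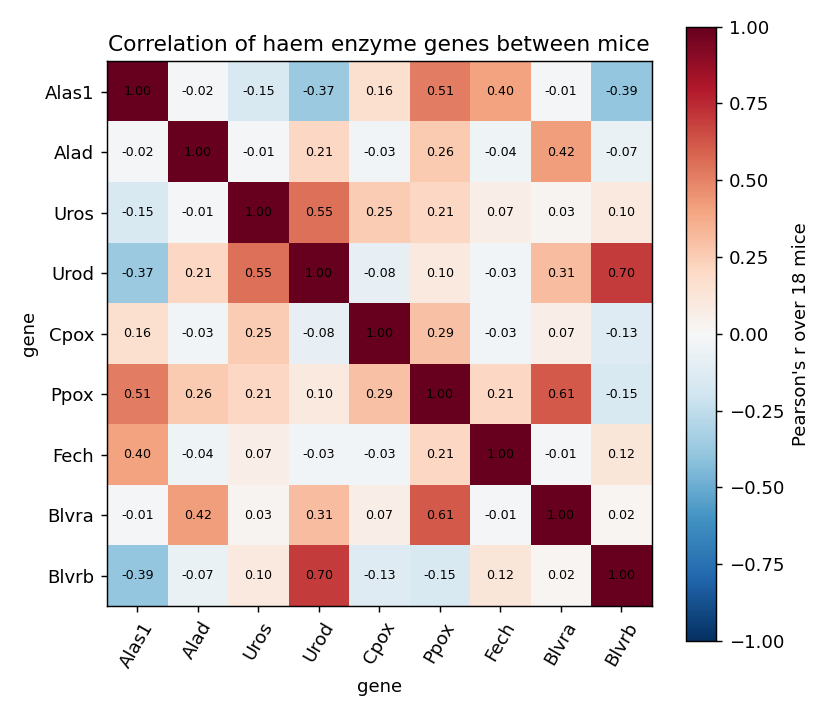
Pearson's r over 18 mice between the haem enzyme genes, each by its brightest probe set, in pathway order from left to right and top to bottom. Red is positive and blue negative. Urod with Blvrb at 0.70 was the only pair past adjustment over 36 pairs, and the others ran from -0.39 to 0.61.

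Regulators of Alas1 were looked at next, among them Ppargc1a, a coactivator that raises Alas1 in fasting, Nr1d1, a haem-binding repressor of the clock, and the drug-sensing receptors Nr1i2 and Nr1i3. None of 12 correlated with Alas1 after adjustment over the 12. By Pearson's r over all 18 mice Bach1, a repressor that haem inactivates, had the smallest p, with r = 0.45 and rho = 0.24 (permutation p = 0.0619 and 0.328, adjusted p = 0.51 and 0.737); r was 0.65 within high and 0.18 within low altitude, and 0.20 without high B1 and low B2. By Spearman's rho Ppargc1a had the smallest p (rho = -0.40, permutation p = 0.105, adjusted p = 0.737), with r = -0.18 (permutation p = 0.462, adjusted p = 0.767), -0.59 within high and -0.01 within low altitude, and -0.25 without the same 2 mice. Within low altitude Hnf4a had r = 0.81 (permutation p = 0.0468, adjusted p = 0.562). Its r was 0.14 within high altitude, 0.37 over all 18 mice and -0.12 without high B1 and low B2. Between altitudes, 0 of 15 measured regulators and haem sensors were called, with 7 positive and 8 negative differences. Ppara differed by -1.06 ± 0.44, Nr1d1 by -0.43 ± 0.18 and Ppargc1a by 0.71 ± 0.34 on the log2 scale (SE, adjusted p = 0.39, 0.406 and 0.5).

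Of 19 measured genes of haem and porphyrin transport 0 passed the altitude test, with 8 positive and 11 negative differences and a median of -0.03. Tmem14c, a mitochondrial membrane protein that brings porphyrin precursors to their oxidation, came closest, at 7.38 ± 0.25 at high altitude and 7.91 ± 0.29 at low altitude (SD, 9 mice each), a log2 difference of -0.53 ± 0.12 (SE, adjusted p = 0.0711). Tspo, an outer mitochondrial membrane protein that binds porphyrins, differed by 0.46 ± 0.15 and the mitochondrial transporter Abcb8 by 0.31 ± 0.11 (SE, adjusted p = 0.257 and 0.282). Of 12 genes of haem scavenging and bilirubin clearance 0 passed, with 6 differences in each direction and a median of 0.01. The haem-binding plasma protein gene Hpx differed by 0.18 ± 0.06, the bilirubin importer gene Slco1b2 by -0.27 ± 0.09 and the glutathione transferase gene Gsta2 by 2.20 ± 0.80 (SE, adjusted p = 0.289, 0.252 and 0.308); Gsta2 varied widely, from 6.93 to 12.16 at high and from 5.26 to 11.14 at low altitude.

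Of 19 liver haemoprotein and partner genes 0 passed, with 9 positive and 10 negative differences and a median of -0.00. At an unadjusted p under 0.05 limma gave 3 of 19, against 10.1% of all probe sets. Of these 3, 1 was negative, against 4.95% of all. Cyp1a2, a haem-containing cytochrome P450 of hepatocytes, had the smallest p, at 12.12 ± 0.69 at high altitude and 12.90 ± 0.22 at low altitude (SD, 9 mice each), a log2 difference of -0.78 ± 0.22 (SE, adjusted p = 0.146). The other 2 were positive: Ido2, a tryptophan-degrading haem enzyme, differed by 0.57 ± 0.19, and Cyp7a1, the rate-limiting enzyme of bile acid synthesis, by 1.42 ± 0.59 (SE, adjusted p = 0.251 and 0.398). Of 6 iron-sulfur and mitochondrial iron genes 0 passed, with 5 negative differences and a median of -0.13. Nfs1, which supplies sulfur for iron-sulfur clusters such as that of Fech, differed by -0.18 ± 0.08 (SE, adjusted p = 0.469).

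Among 12222 named genes brighter than the median probe set, those most like Alas1 were found by Pearson's r over the 18 arrays after the altitude means were subtracted, as a description. They were Utp20, Lrig1, Atxn7, E130309D02Rik and Sos1, with r of 0.90, 0.89, 0.88, 0.88 and 0.88. All 18 mice were kept, high B1 and low B2 among them. Here and below such r are the highest of a search over 12222 genes. How high they would be for unrelated genes was not tested. The gene most like Alad was Proz at 0.83, like Uros Zscan26 at 0.88, like Cpox Smarcal1 at 0.84, like Ppox Pdik1l at 0.90, like Fech Tigd2 at 0.83, like Blvra Mdp1 at 0.80 and like Blvrb Ces1e at 0.88. For Urod 1443849_x_at it was Alb, the albumin gene, at 0.91. Urod 1417206_at had r = -0.02 with Alb, and Blvrb had 0.63. Alb itself varied little, from 14.66 to 14.92 over the 18 mice.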

How the data were processed

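Liver RNA of 18 wild mice was labelled as biotinylated cRNA and hybridised to Affymetrix arrays for mouse, as the labels' protocols say. The deposited values are on the log2 scale and were made by the authors with RMA in affy, per the submitters' processing notes (version: not given in the sources). RMA compresses dim probe sets towards a floor. Scan dates were not used here. The titles of the samples gave altitude and location. Gene symbols came from GEO's platform annotation: 34945 probe sets had 1 symbol and 932 several, and 9160 were unnamed; the Entrez number of 34741 was in the RefSeq gene table. Coordinates and sequences are not given, since the values name no build.

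Limma 3.58.1 in R 4.3.3 was fitted over 45037 probe sets (64 Affymetrix controls left out) with location as random block by duplicateCorrelation (consensus -0.00189), a mean-variance trend and Benjamini-Hochberg adjustment at 0.05; intervals are 95%. Such a block near 0 treats mice of 1 location as nearly independent, and so do the permutations. Locations were compared by moderated F tests in a fit of 6 location means. Single values were also tested by exact permutation over 48620 splits of mice, and correlations with 100000 resamples. A gene outside the haem enzymes was represented by its single-symbol probe set with the highest mean, and "brightest" means the same. The named genes were all single-symbol probe sets of the 9 symbols and, of each list, up to 4 members with the smallest altitude p. The genes and lists were chosen with earlier results of these data known. The procedure was tested on simulated data. Alternatives covered the block, location means, mouse number, centring, an RNA integrity covariate, weights, trend, filters and leaving out mice and locations. Outside this rule, some genes and comparisons were chosen after their values were seen. They were Alb, Apoa1 and the regulators described by role or correlation with Alas1. In the account of mouse high B1 they were Slc4a1, Hamp, Klf1, Ermap, the haemoglobin genes and the genes named as also highest in it. The Urod and Blvrb alternatives, the Alb comparison and the integrity correlations were also chosen in this way. Figures were drawn with matplotlib 3.10.9.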

Additional observations from a re-analysis of the deposited data

Results flagged for a closer look

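In each altitude group of 9 mice, a value was flagged where its gap to the next mouse was too large a share of the group's range by Dixon's test at 95%. Over the 20 haem enzyme probe sets this gave 40 groups, and chance flags about 1 in 20 groups; 5 values were flagged.

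For Alas1 1424126_at, high B1 at 11.86 stood above the next high altitude mouse at 10.74, and low B2 at 8.58 below the next low altitude mouse at 9.96. For Alas1 1455282_x_at, low B2 at 6.58 stood below the next at 8.01. For Uros 1423482_at, high C1 at 9.87 stood above the next high altitude mouse at 9.57, and for the dim Uros 1440535_at, high B2 at 5.54 stood above the next at 5.23.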

How the results depend on the processing

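The 20 haem enzyme probe sets had 0 calls between altitudes except with arrays centred on probe sets above the 75th percentile of level (bright centring) and with arrays weighted by quality, where 1, Cpox 1422493_at, was called (log2 differences -0.64 and -0.75). Between the high locations 1, Alad 1424877_a_at, was called with weighted arrays (adjusted p = 0.0489). Leaving out any 1 mouse gave 0 haem enzyme calls for altitude and for locations. The count of 134 over all probe sets was 0 with 1 mean per location (3634 at an unadjusted p under 0.05) and 0 by exact permutation, 61 with mouse number as a replicate block, 369 with bright centring, 205 with the Actb integrity covariate, 251 with weights, 66 with 1 probe set per named gene and 321 at a threshold of 0.1. Without whole locations it was 82 (high A), 227 (high B), 78 (low B) and 39 (low C), and without 1 mouse 49 to 163, moving over 1.5 times without low A2 (83), low B3 (49) or low C2 (79). The 75 probe sets between high locations became 314 with weights and 188 at 0.1, and 31 to 113 without 1 mouse, moving over 1.5 times without high A1 (40), B3 (31), C1 (46) or C3 (48) and low A1 (47), A2 (44), A3 (43) or B2 (113). The 28 between low locations became 107 with weights, 13 with 1 probe set per gene and 13 to 62 without 1 mouse, moving over 1.5 times without low A2 (14), A3 (13), B2 (62), B3 (17) or C2 (43). The causes were not tested.

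Of 653 repeats of the 20 altitude differences, 48 changed sign, all in uncalled differences near 0, and 27 of these came from leaving out 1 mouse. Leaving out 1 mouse gave -0.16 to 0.02 for Alad 1424877_a_at, -0.18 to 0.07 for Alad 1457306_at, -0.01 to 0.26 for Alas1 1455282_x_at, -0.1 to 0.08 for Blvrb, -0.07 to 0.02 for Cpox 1440747_at, -0.1 to 0.01 for Ppox 1441862_at, -0.17 to 0.00266 for Urod 1443849_x_at and -0.06 to 0.03 for Uros 1440535_at. The sign also changed for Uros 1440535_at (0.02 replicate block, 0.00346 bright centring, 0.06 without high A, 0.05 without low B, 0.01 weights), Uros 1423482_at (0.03 without low A), Alad 1457306_at (0.05 replicate block, 0.22 without high A, 0.16 without low B), Alad 1424877_a_at (0.09 without high A, 0.18 without low B), Blvrb (0.01 bright centring, 0.22 integrity covariate, 0.26 without high B, 0.12 without low A, 0.01 weights), Urod 1443849_x_at (0.06 integrity covariate, 0.09 without high B, 0.08 without low A), Cpox 1440747_at (0.01 without high C) and Ppox 1441862_at (0.03 without high C). The 1 correlated pair was 0 by Spearman, within either altitude and without the 2 farthest mice. Same-numbered mice of different locations did not deviate together (mean r = -0.01), and 5 of 18 mice correlated best with a mouse of their own number. Detection calls were not used here, so how far dim probe sets lay above background is unknown.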
